A study of Mus musculus with 12 samples.

Results

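Peaks assigned to no gene were the entries of 4 deposited m6A peak tables whose Ensembl gene ID was empty, counted once per chromosome, start, end and strand within a table. They numbered 1514 of 9131 entries (16.6%, 95% Wilson interval 15.8 to 17.4) in the Mettl14 knockdown table of set 1 and 1170 of 6862 (17.0%) in that of set 2. The Mettl3 knockdown tables held 1356 of 8671 (15.6%) in set 1 and 1168 of 6854 (17.0%) in set 2. Over the 4 tables they covered 3986 different positions. Resolved into the 6 IP libraries behind the tables, they came to 4386 of 33072 library peaks, and the other peaks carried 6097 gene IDs.

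N6-methyladenosine (m6A) is an internal methyl mark on adenosines of mRNA and long noncoding RNA, placed during transcription by a nuclear complex in which METTL3 is the catalytic subunit and METTL14 helps to bind RNA. The complex prefers GGACT and related sequences, and in mRNA the mark gathers near stop codons and in long exons. Embryonic stem cells also transcribe many noncoding, antisense and readthrough RNAs. A peak list made from RNA can therefore hold peaks outside the gene models used to name them.

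The cells were J1 mouse embryonic stem cells grown with leukaemia inhibitory factor on irradiated mouse embryonic fibroblast feeders. All 3 groups were infected with shRNA lentivirus and selected with puromycin as stable lines, and the shRNA was a scramble control or was directed against Mettl14 or Mettl3. Fragmented poly(A) RNA was pulled down with an anti-m6A antibody, and each group had 2 IP libraries. The tables form 2 sets, each with 1 scramble, 1 Mettl14 knockdown and 1 Mettl3 knockdown library, and the tables of a set share the scramble library. The sources used here do not say that the 2 libraries of a group came from separate cultures, so the spread between libraries may be technical. Genes marking ES cells had a listed peak for 3 to 5 of 12 per library, Sox2, Klf4 and Sall4 in all 6, and feeder fibroblast genes for 0 to 2 of 12. The removal of feeders is not stated, and a peak does not say which cells its RNA came from.

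The sequences below come from the 10 loci with the most tags among 102 found in all 6 libraries. Printed are those for which the reference gave a transcript window. They do not represent the 102, of which 40 overlapped a reference gene on their own strand. Capitals mark GGAC, or GGACT where a T follows. Windows are 120 nt at the middle of the stretch shared by the 6 libraries, and in untranslated regions 30 nt placed at the GGAC nearest to it, so those hold one by construction. They were taken from GENCODE M21 transcripts on the GRCm38 assembly, which is mm10, and each is on the strand of the peak. The Il17d line is the reverse complement of that gene's untranslated region, as no reference gene overlaps the peak's strand there.
Eppk1 coding sequence, chr15:76104143-76104262 (minus strand): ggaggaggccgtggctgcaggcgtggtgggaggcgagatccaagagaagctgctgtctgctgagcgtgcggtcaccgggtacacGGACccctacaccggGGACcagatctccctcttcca
2900026A02Rik coding sequence, chr5:113191186-113191305 (minus strand): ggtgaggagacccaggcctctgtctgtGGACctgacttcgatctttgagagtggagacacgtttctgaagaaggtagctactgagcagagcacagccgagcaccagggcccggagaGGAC
2010320M18Rik noncoding exon, chr8:70777086-70777205 (plus strand): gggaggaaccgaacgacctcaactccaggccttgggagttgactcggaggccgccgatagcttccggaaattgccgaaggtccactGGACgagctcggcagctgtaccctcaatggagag
Aak1 3′ untranslated region, chr6:86996874-86996903 (plus strand): tccctgtcctccaGGACTacagagctggcc
Acvr2b 3′ untranslated region, chr9:119434109-119434138 (plus strand): gcagagctacactGGACTtgggcacatttg
antisense to Il17d, chr14:57524777-57524806 (minus strand): gctgggtgtcgcccctacagaagtGGACTg
The windows of Eppk1 and 2900026A02Rik held 2 GGAC each, and that of 2010320M18Rik held 1. None of these 120-nt windows held a GGACT.

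Peaks with no gene were a smaller share of the knockdown libraries than of the scramble libraries. They made up 1181 of 7886 peaks (15.0%, 14.2 to 15.8) in the scramble library of set 1 and 809 of 5438 (14.9%, 14.0 to 15.8) in that of set 2. The Mettl14 knockdown libraries had 712 of 5717 (12.5%) and 582 of 4367 (13.3%). The Mettl3 knockdown libraries had 516 of 5087 (10.1%, 9.34 to 11.0) and 586 of 4577 (12.8%). All 4 knockdown values lay below both scramble values. With 2 libraries against 4 and scramble libraries shared within a set, no test was made. Wilson intervals here and below cover counting error only.

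These peaks were narrow, with few tags and high enrichment. Median width in the scramble libraries was 294 and 368 nt for peaks with no gene against 593 and 709 nt for peaks with a gene. In the Mettl14 knockdown libraries it was 212 and 254 against 524 and 626 nt, and in the Mettl3 knockdown libraries 262 and 220 against 554 and 601 nt. The groups of values did not overlap, and the mean difference over libraries was -333 nt (SD 37.7, n = 6, exact two-sided sign-flip permutation p = 0.03125, adjusted over 7 tests p = 0.03125). This p is the smallest that 6 libraries can give, and it holds for each of the 7 tests. The test takes the libraries as independent, but many peaks recur between them.

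Tags, the reads of the IP library within a peak, had medians of 13.5 to 28 per peak with no gene and 52 to 85 per peak with a gene. The mean difference was -51.6 tags (SD 13.2, n = 6, exact permutation p = 0.03125). Part of this follows from width, and per 100 nt the medians were 7.04 to 8.16 against 11.3 to 13.7 tags (mean difference -4.87, SD 0.959, exact permutation p = 0.03125). For scramble libraries the tables give tags and scores only for peaks lost in at least 1 knockdown table, which left out 241 and 136 of the scramble peaks with no gene. Of scramble peaks with a gene, tags are given for 3338 of 6705 and 2297 of 4629.

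Fold enrichment, the authors' value of IP over the matching control library inside the peak, went the other way. Its median was 62.5 and 58.1 in the scramble libraries, 101 and 69.7 after Mettl14 knockdown, and 107 and 60.0 with Mettl3 knockdown. Peaks with a gene had medians of 11.6 to 17.0, so the ranges did not overlap (mean difference 61.9, SD 20.7, n = 6, exact permutation p = 0.03125). The order was the same among peaks of 10 to 30 tags. There, medians were 92.6 against 57.1 and 145 against 116 in the scramble libraries, 68.2 against 37.3 and 77.0 against 45.9 after Mettl14 knockdown, and 127 against 68.1 and 45.5 against 32.0 with Mettl3 knockdown. The peak score, which rises as the caller's p-value falls, had medians of 155 to 272 against 203 to 290 (mean difference -45.5, SD 22.1, n = 6, exact permutation p = 0.03125). At 10 to 30 tags that difference was 7.28 in the other direction, with an exact permutation p = 0.156. Fold enrichments of peaks with few tags often repeated, as 133.9, 167.4 and 200.8 did in the Mettl14 knockdown library of set 1. How far few control reads set such ratios was not tested.

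**Figure D1:**
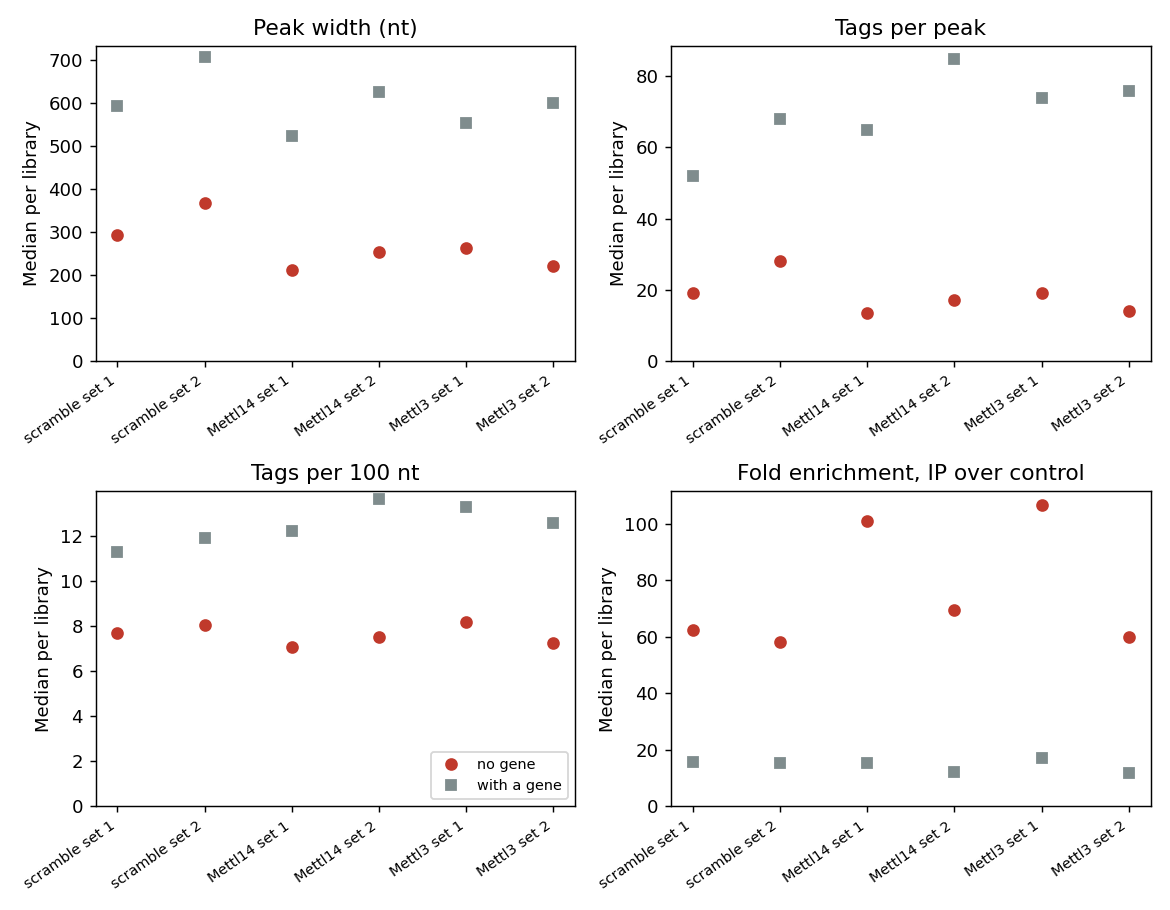
Medians per library (vertical axes, from 0) of peak width in nt, tags per peak, tags per 100 nt and fold enrichment of IP over control, for peaks with no gene (circles) and with a gene (squares) in the 6 IP libraries. Circles lie below squares in all libraries for the first 3 measures and above them for enrichment, where no circle is under 58.1 and no square over 17.0.

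Many of these peaks lay on or opposite annotated genes. Against GENCODE M21, 1091 of the 4386 peaks (24.9%, 20.9 to 31.2 by library) overlapped a gene on their own strand, and 1575 (35.9%, 27.9 to 43.7) lay inside a gene on the other strand only. A further 124 began within 1 kb beyond the 3′ end of a same-strand gene, 413 at 1 to 10 kb and 731 at 10 to 100 kb. Upstream, 144 lay within 10 kb before a gene's 5′ start, and 308 (7.02%) were in none of these classes. As the release behind the deposited names is unknown here, a gene absent from it and a gene missed by its rule cannot be told apart for most of these.

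Of the same-strand peaks, 505 were on long noncoding RNA genes, 437 on protein-coding genes, 79 on pseudogenes, 1 on a small RNA gene and 69 on other gene types. On protein-coding genes, 188 peak centres were in a 3′ untranslated region, 104 in coding sequence, 44 in a 5′ untranslated region, 58 in an intron and 29 in a noncoding exon. For 180 of these 437 (41.2%) the gene's own ID was listed for another peak in the tables. The classes differed in form. Peaks on protein-coding genes had a median width of 382 nt, 34 tags and an enrichment of 25.5, those on long noncoding genes 310 nt, 21 tags and 55.6, antisense peaks 241 nt, 15 tags and 98.5, and those in no class 192 nt, 14 tags and 116.

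**Figure D2:**
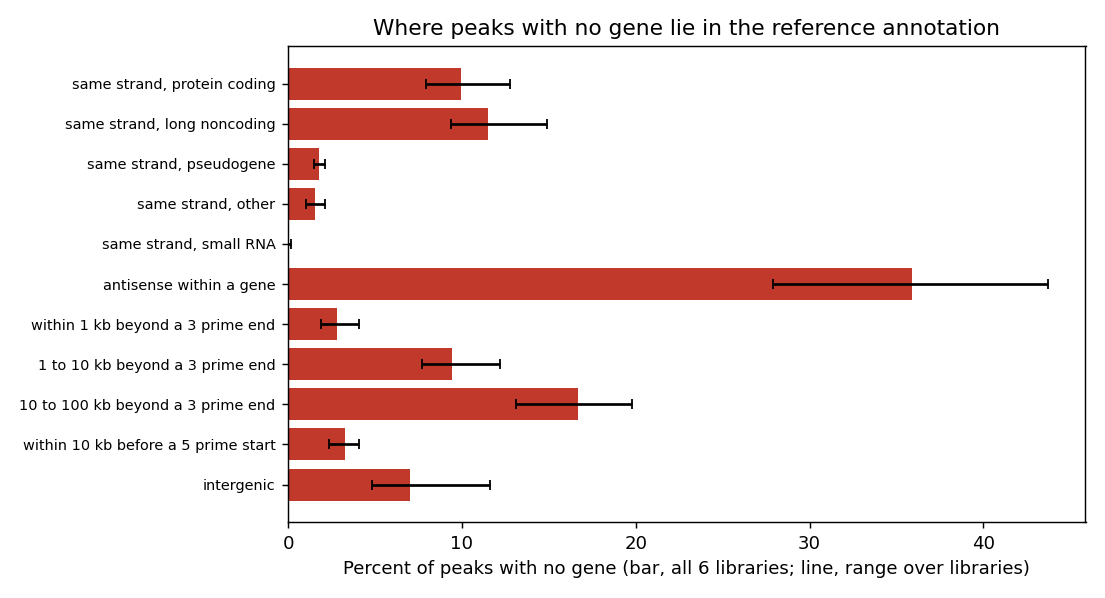
Share of peaks with no gene (horizontal axis, percent) in each class of position relative to GENCODE M21 genes, as bars for the 4386 peaks of all 6 libraries, with lines for the lowest and highest library. Antisense peaks within a gene form the largest class at 35.9%, with a range of 27.9 to 43.7.

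Distances were taken to listed genes, those that carry another peak in the tables, without a baseline from other positions. The nearest listed gene span on the same strand was at a median of 125 kb, with library medians of 105 to 169 kb. Within 1 kb lay 225 peaks (5.14%), within 10 kb 589 (13.5%), and beyond 100 kb 2403 (54.9%). Of peaks within 10 kb and not touching a span, 325 lay beyond its 3′ end and 260 before its 5′ start. On either strand the median distance was 20.2 kb, and 1085 peaks (24.7%) lay inside a listed gene's span on the other strand.

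Every assembled chromosome held some. Chromosome 7 had the most, 423 (9.64% of peaks with no gene against 8.46% of peaks with a gene). The X chromosome had 138, which was 19.6% of its peaks (15.5 to 27.1 by library). Chromosomes 9 and 11 had the lowest shares of their own peaks, 9.91% and 9.72%. On chromosomes 6, 7, 12 and X the share of peaks with no gene exceeded the share of peaks with a gene in 6 of 6 libraries, and on 4, 9 and 11 in 0 of 6. Chromosome Y had 16 with no gene and 5 with a gene. Strand was even, with 45.2 to 54.5% on the plus strand.

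GGACT, the letters most favoured by the writer complex, was looked for in 300 nt at the peak centre, on transcripts. This covered 835 peaks with no gene and 27671 with a gene whose centre lay in a same-strand exon of the reference. It was present in 51.2% and 47.5% of the scramble windows, 51.4% and 49.5% after Mettl14 and 55.6% and 52.0% after Mettl3 knockdown. Peaks with a gene had 43.9 to 46.5% (mean difference 5.99 percentage points, SD 1.84, n = 6, exact permutation p = 0.03125). Among peaks under 300 nt the difference was 1.20 points (exact permutation p = 0.594), and at an FDR of at most 1% it was 4.31 points (exact permutation p = 0.656). With GGAC in place of GGACT it was 2.75 points (exact permutation p = 0.03125). The middle 300 nt of the longest transcript held it for 26.5% of 46561 reference genes.

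The strand difference was larger. On the opposite strand of the same windows, GGACT (read as AGTCC on the peak strand) was in 18.2 to 27.5%, a mean difference of 27.7 percentage points (SD 5.00, n = 6, exact permutation p = 0.03125). Under 300 nt it was 31.1 points with the same p (exact permutation p = 0.03125), and in windows of 100 nt it was 15.1 points (exact permutation p = 0.03125). Known exons under peaks with no gene thus held GGACT more often on the strand of the peak. So did those under peaks with a gene, with 43.9 to 46.5% on the peak strand and 24.58 to 26.75% on the other.

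Some peaks with no gene faced a gene peak on the other strand. Of all 4386, 630 (14.4%, 13.4 to 15.4) overlapped a gene-assigned peak of the same library on the other strand. The share was 9.74% and 12.4% in the scramble libraries, 17.8% and 17.4% after Mettl14 and 10.7% and 22.5% after Mettl3 knockdown. For the share of peaks with no gene, set 1 of Mettl3 knockdown lay within the scramble range and the other 3 knockdown libraries above it. Peaks with a gene faced any opposite peak, with or without a gene, in 1.53 to 3.91%. A pair of a peak with no gene and a gene peak enters both shares. As peaks with a gene were far more numerous, these shares are not a like comparison.

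Peaks facing a gene peak had few tags beside it. In the 4 knockdown libraries, where tags are given for both strands, 413 of 415 had fewer tags than the opposite peak and 349 (84.1%) at most 10% of them. Median tags were 9 against 267 and 14 against 341 after Mettl14 knockdown, and 11 against 315 and 14 against 242 with Mettl3 knockdown. As a median percentage of the opposite peak this was 3.85, 5.05, 3.64 and 5.38%. Their enrichment was 135, 92.2, 134 and 66.1 against 9.34, 7.11, 9.65 and 7.96 opposite. As above, the part of few control reads in these ratios was not tested. Median width was 179 to 233 nt against 993 to 1239 nt. Few tags and high enrichment were not particular to facing peaks. Peaks with no gene that faced no gene peak had median tags of 15, 18, 20 and 15 and enrichments of 89.5, 61.4, 97.2 and 54.9. Peaks with a gene had median tags of 65, 85, 74 and 76, below those of the opposite peaks. Where several gene peaks lay opposite, the one with the most tags was taken. How often a read was placed on the wrong strand in these libraries was not tested.

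**Figure D3:**
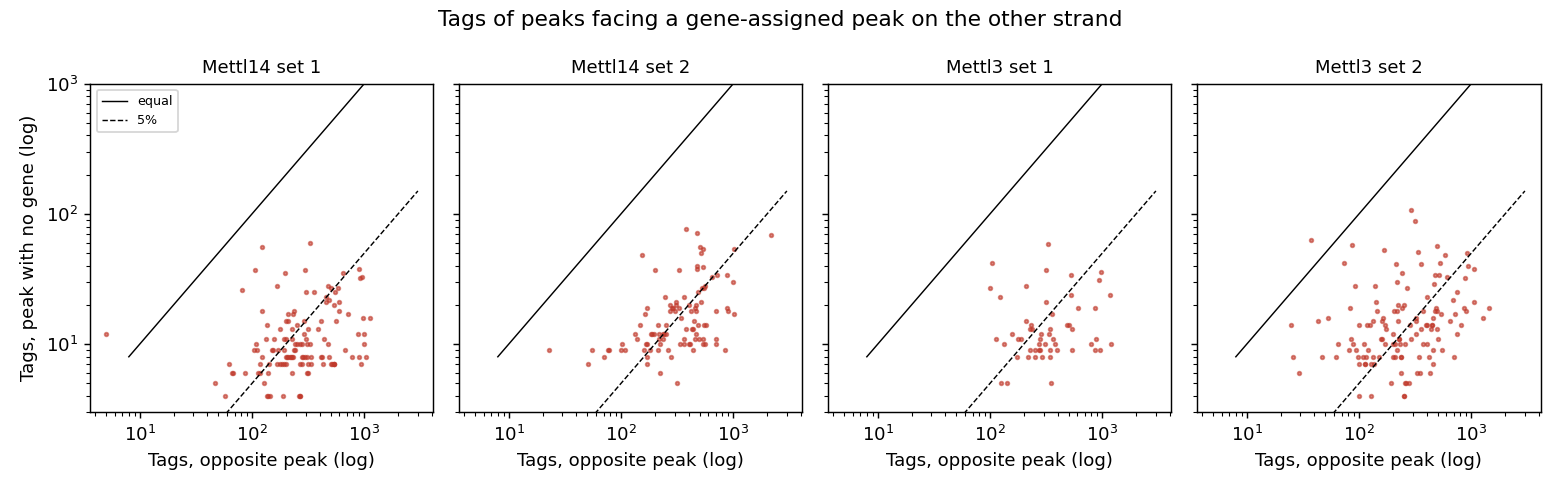
Tags of each peak with no gene that faces a gene-assigned peak (vertical axis, log) against tags of that opposite peak (horizontal axis, log) in the 4 knockdown libraries, with a solid line at equal tags and a dashed line at 5%. Of 415 points, 413 lie below the line of equal tags.

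Under peaks that faced a gene peak, GGACT was more frequent on the gene's strand. These peaks were selected by a gene peak on that strand. Peaks with a gene as a whole had GGACT in 45.2% of windows on their own strand and 26.1% on the other. The order at facing peaks can thus follow from the selection and does not describe the peaks with no gene. In 300-nt windows on the opposite gene's transcript, 51.2% of 582 facing peaks had GGACT on the gene strand and 21.3% on their own strand. Of 410 antisense peaks that faced no gene peak, 23.7% had it on the gene strand and 37.6% on their own. The first order, gene strand over peak strand, was the same in all 6 libraries (43.0 to 63.6% against 19.0 to 24.2%). The second held in 5 of 6, the scramble library of set 2 having 35.1% on the gene strand and 33.8% on the peak strand.

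In 17 loci a peak with no gene faced a gene peak in all 4 knockdown libraries, and the examples here were chosen after their values were seen. At Sox2, a transcription factor of pluripotent cells, the minus-strand locus chr3:34651188-34651741 had 33 and 54 tags after Mettl14 knockdown and 31 and 50 with Mettl3 knockdown, against 952, 1021, 941 and 917 on the Sox2 strand. At Rest, a repressor of neuronal genes, the opposite locus chr5:77282414-77283009 had 38, 30, 36 and 40 tags against 895, 991, 977 and 934. These stayed within a narrow band, at 3.29 to 5.45% for Sox2 and 3.03 to 4.28% for Rest. At Sec62, a subunit of the endoplasmic reticulum translocation machinery, the percentages were higher, at 17.9, 18.4, 13.3 and 31.9%. Sox4, another Sox factor, had 45.9, 14.9, 27.3 and 11.5%, and the long noncoding gene Gm26735 is annotated on the peak's strand there. For 13 of the 17 loci the 120 nt at the middle of the locus lay clear of untranslated regions. Of these windows 6 held more GGAC on the gene strand, 3 more on the peak strand and 3 as many on both, and 1 held none. In the other 4 the window was placed at a GGAC of the gene strand, so it says nothing of the strand, and Sox2 is one of these. Gene-strand sequences of 6 loci are printed as examples of both orders, with capitals as above.
Sox2 at the stop codon, chr3:34651368-34651397 (plus strand): acatgtgagggctGGACTgcgaactggaga
Rest coding sequence, chr5:77282697-77282816 (plus strand): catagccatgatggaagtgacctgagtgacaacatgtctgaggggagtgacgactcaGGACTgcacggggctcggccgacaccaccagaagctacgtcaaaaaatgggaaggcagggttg
Sec62 coding sequence, chr3:30818740-30818859 (plus strand): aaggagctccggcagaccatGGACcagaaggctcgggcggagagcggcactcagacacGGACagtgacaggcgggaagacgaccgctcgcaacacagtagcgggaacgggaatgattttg
Usp47 coding sequence, chr7:112093209-112093328 (plus strand): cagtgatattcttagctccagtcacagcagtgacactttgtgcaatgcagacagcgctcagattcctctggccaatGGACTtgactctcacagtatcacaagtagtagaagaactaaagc
Chd7 coding sequence, chr4:8866487-8866606 (plus strand): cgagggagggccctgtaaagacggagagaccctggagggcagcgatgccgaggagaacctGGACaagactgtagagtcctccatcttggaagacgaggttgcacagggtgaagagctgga
Sox4 coding sequence, chr13:28951907-28952026 (minus strand): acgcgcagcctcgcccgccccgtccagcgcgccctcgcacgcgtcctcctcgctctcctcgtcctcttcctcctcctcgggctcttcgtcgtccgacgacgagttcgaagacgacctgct
Rest, a zinc finger factor, and Usp47, a deubiquitinase, each had 1 GGACT on the gene strand of these windows and no GGAC on the peak strand. Sec62 had 2 GGAC on the gene strand and 0 on the peak strand, and the chromatin remodeller Chd7 had 1 and 1. The Sox4 window had 0 on the gene strand and 4 on the peak strand.

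Peaks with no gene were found again less often than peaks with a gene. In another library, with at least 1 nt of same-strand overlap, 57.8% (55.0 to 60.6) and 67.0% of the scramble peaks with no gene had a partner, 75.0% and 69.6% after Mettl14 and 88.6% and 70.7% after Mettl3 knockdown. For peaks with a gene this was 81.6 to 95.9%, higher in each of the 6 libraries. Present in all other 5 libraries were 8.98 to 22.9% against 31.7 to 56.8%. Widths differ between the kinds. Under 300 nt, 60.1% of peaks with no gene and 69.0% of peaks with a gene had a partner, at 300 to 600 nt 78.4% and 90.4%, and over 600 nt 88.1% and 97.1%. Peaks with no gene were lower in 5, 6 and 5 of 6 libraries in these classes. As libraries overlap each other mutually, no test was made.

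Merged over the libraries, they formed 2287 loci. Of these 1366 (59.7%) were in 1 library, 402 in 2, 219 in 3, 124 in 4, 74 in 5 and 102 (4.46%) in all 6. Only the scramble library of set 1 had 501, only that of set 2 had 267, and 105 were in both scramble libraries alone. Loci on a same-strand gene were in all 6 libraries in 8.32% of 481 cases, those 1 to 10 kb beyond a 3′ end in 9.71% of 175, antisense loci in 3.05% of 886, and loci in no class in 0.470% of 213.

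**Figure D4:**
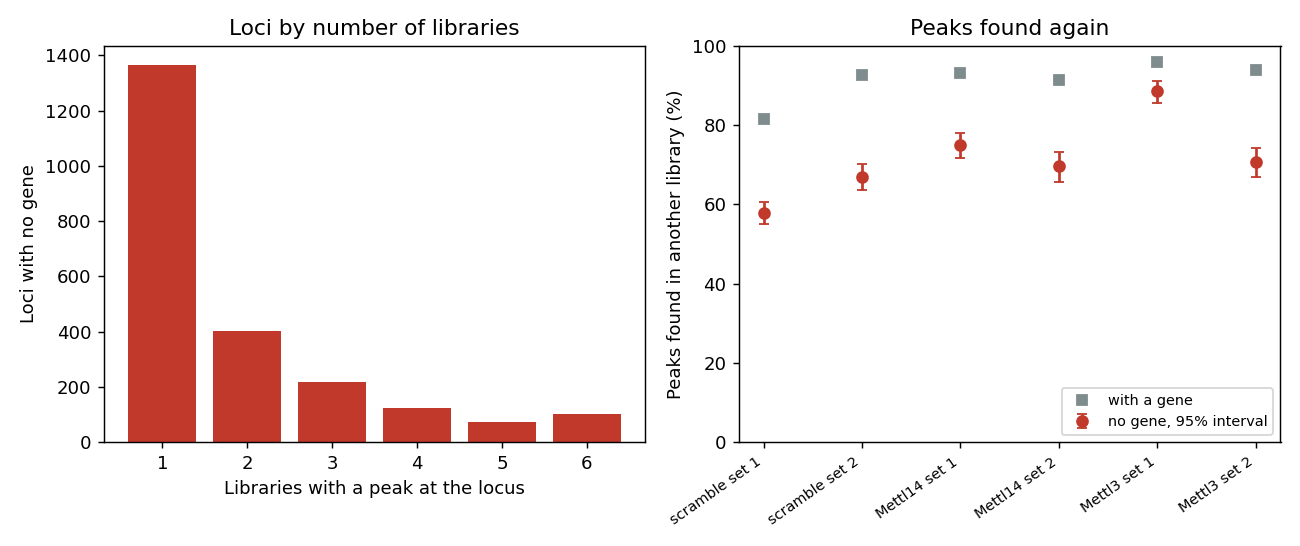
Left, number of loci with no gene (vertical axis) by the number of libraries with a peak there. Right, percent of peaks found in another library, for peaks with no gene (circles, 95% Wilson interval) and with a gene (squares). Loci in 1 library number 1366 and loci in all 6 number 102, and each circle lies below its square.

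A peak in all 6 libraries was found for 4.46% of loci with no gene, beside 20.3% of 10747 loci when all peaks were merged the same way. Of the 102 such loci, 40 overlapped a reference gene on their own strand. Among the 10 with the most tags 7 lay inside such a gene, 5 of them with an exon at the middle of the locus. Scramble tags are not given for those named here, since a scramble peak shared with both knockdowns has no entry of its own. Eppk1, which encodes the cytoskeletal linker epiplakin, had the most, at chr15:76102336-76109560 on the minus strand, with 1305 and 1382 tags after Mettl14 knockdown and 1211 and 1214 with Mettl3 knockdown. Its enrichment was 12.1 and 10.9 in the scramble libraries, 11.3 and 8.82 after Mettl14 and 15.2 and 7.34 after Mettl3 knockdown. Mean log2 changes over its shared pairs in the authors' deposited tables were all below 0. They were -0.28 in set 1 and -0.67 in set 2 for Mettl14 and -0.17 and -1.06 for Mettl3. The locus held 2, 1, 3 and 3 peaks in the 4 knockdown libraries, and enrichment is that of the widest. Eppk1 is made of repeated segments, and the sources used here do not give how reads with several matches were treated.

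Aak1, a kinase of clathrin adaptors, had a locus in its 3′ untranslated region (chr6:86995802-86998205, plus strand) with 199, 189, 162 and 155 tags in the 4 knockdown libraries. Enrichment there was 38.2 and 16.3 in the scramble libraries and 16.6, 14.1, 11.0 and 7.78 with knockdown. The set 1 scramble library was the highest. Mean log2 changes over the shared pairs at this locus in the authors' deposited tables were all below 0 (-1.08, -0.57, -0.65 and -1.27). Acvr2b, an activin receptor, had 158, 151, 186 and 175 tags at chr9:119433581-119434590. Its log2 changes split by set in the authors' deposited tables, at 0.69 and 1.01 in set 1 and -0.52 and -1.21 in set 2.

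In coding sequence of 2900026A02Rik (chr5:113190595-113192119, minus strand) the 4 knockdown libraries had 137, 165, 162 and 126 tags, and the listed span of that gene began 27244 nt downstream of the locus. Noncoding genes followed. 2010320M18Rik (chr8:70776762-70777506, plus strand) had 143 to 181 tags in the knockdown libraries and nearly the same limits in all 6, with widths of 720 to 745 nt. Platr10 had 142 to 231 tags at chr3:75647935-75649293 within an intron, and Gm40849 had 125 to 245 at chr12:19046641-19047711. One locus lay between the listed noncoding gene Meg3, an imprinted maternally expressed RNA, and Mir493 (chr12:109575749-109576939, plus strand). It began 4023 nt beyond the listed 3′ end of Meg3 and had 123, 133, 112 and 122 tags and widths of 631 to 1191 nt. Opposite Brd1 (chr15:88709646-88710884) and Il17d (chr14:57524342-57525140), peaks of 111 to 157 and 97 to 131 tags were present in all 6 libraries with no peak on the gene strand.

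A larger share of peaks with no gene than of other peaks was called lost or new in each knockdown table. Lost means listed in the scramble library alone and new listed in the knockdown library alone, as the authors' deposited tables mark it. With Mettl14 knockdown, 802 of 1181 scramble peaks with no gene (67.9%, 65.2 to 70.5) were lost in set 1, beside 43.3% of all scramble peaks. In set 2 it was 588 of 809 (72.7%, 69.5 to 75.6), beside 45.9%. With Mettl3 knockdown, 840 of 1181 (71.1%, 68.5 to 73.6) were lost in set 1, beside 45.4%, and 582 of 809 (71.9%, 68.8 to 74.9) in set 2, beside 41.9%. The 4 shares ran from 67.9 to 72.7%, and each interval lay above its background.

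New peaks showed the same lean. Of the Mettl14 knockdown peaks with no gene, 317 of 712 (44.5%) were new in set 1, beside 18.9% of all knockdown peaks, and 350 of 582 (60.1%) in set 2, beside 31.0%. With Mettl3 knockdown 154 of 516 (29.8%) were new in set 1, beside 12.8%, and 340 of 586 (58.0%) in set 2, beside 28.1%. As peaks with no gene were narrow and had few tags, both shares were also read in classes. Lost shares were higher than for peaks with a gene in each width class of each table, for example 65.2% against 48.9% at 300 to 600 nt and 77.1% against 70.7% under 300 nt with Mettl14 knockdown in set 1. New shares were closer once tags were matched. At 10 to 30 tags they were 40.0% against 31.7% and 66.7% against 62.6% after Mettl14 knockdown, and 29.6% against 30.3% and 56.6% against 48.4% with Mettl3 knockdown. Over 50 tags they were 4.41% against 5.18%, 17.7% against 15.2%, 4.88% against 4.38% and 17.5% against 13.4%. At an FDR of at most 1%, new shares were 16.7, 18.5, 8.61 and 34.0%, beside 6.40, 7.60, 4.30 and 10.5% of all knockdown peaks.

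Shared peaks with no gene were lower after knockdown less often than shared peaks as a whole. In the authors' deposited tables, 176 of 397 shared pairs with no gene (44.3%, 39.5 to 49.2) were lower with Mettl14 knockdown in set 1, beside 54.6% of all pairs. The share was 159 of 234 (67.9%, 61.7 to 73.6) in set 2, beside 84.8%. With Mettl3 knockdown it was 106 of 363 (29.2%, 24.8 to 34.1) in set 1, beside 35.2%, and 201 of 247 (81.4%, 76.0 to 85.7) in set 2, beside 93.0%. Median log2 changes in the 4 tables, in the order above, were 0.18, -0.43, 0.58 and -0.94, beside -0.06, -0.59, 0.22 and -0.91 for all pairs. The knockdown values carry the authors' scaling constant of each table, whose basis the sources used here do not give. With the constant divided out, the lower shares were 37.3% against 45.1%, 54.3% against 65.7%, 29.2% against 35.5% and 59.1% against 63.0% of all pairs. At an FDR of at most 1% they were 33.5% against 48.5%, 50% against 80.5%, 24.1% against 29.3% and 74.3% against 92.0%. Median log2 changes were then 0.47, -0.023, 0.88 and -0.76, beside 0.021, -0.45, 0.32 and -0.81 for all pairs. In both knockdowns the set 2 shares exceeded the set 1 shares. Peaks of pairs with no gene also narrowed more. Knockdown width was 74.8, 82.2, 79.6 and 68.6% of scramble width, beside 87.2, 91.2, 87.1 and 86.7% in all pairs. Enrichment is taken inside the peak, and lower shares were not matched by width or tags. The part of width in them was not tested.

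**Figure D5:**
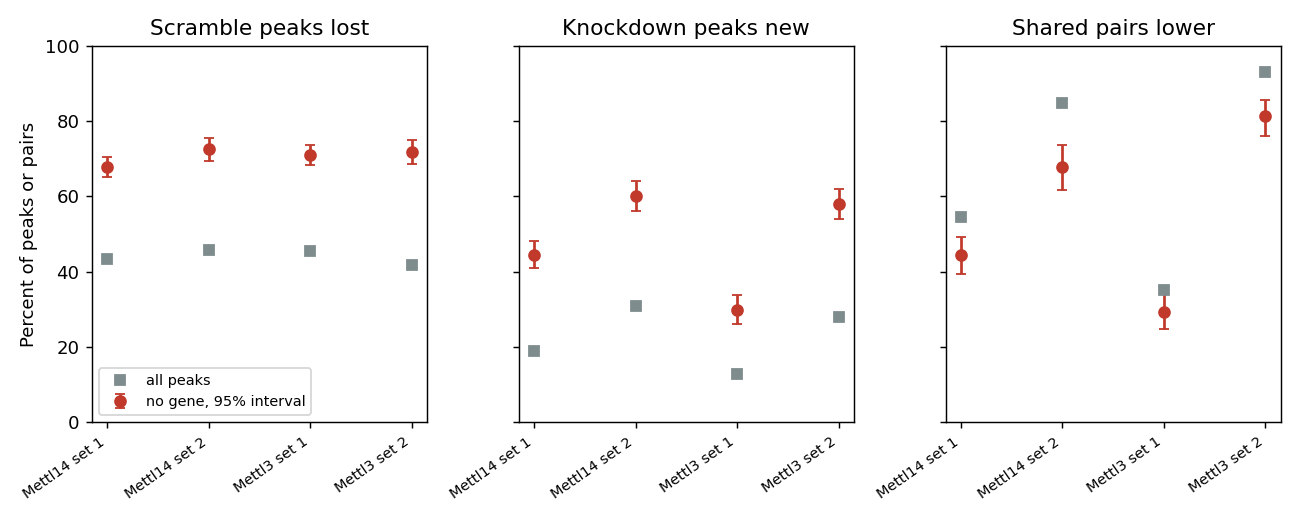
Percent of scramble peaks lost, knockdown peaks new and shared pairs lower (vertical axis) in the 4 tables, for peaks with no gene (circles, 95% Wilson interval) and all peaks (squares). Lost and new circles lie above the squares, and lower circles lie below them.

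By position, peaks on a same-strand gene were lost least often in 3 of the 4 tables. With Mettl14 knockdown in set 1, 60.6% of 312 such scramble peaks were lost, against 74.3% of 280 antisense peaks that faced no gene peak and 71.1% of 481 outside genes. In set 2 the values were 63.9, 77.7 and 75.7%, and with Mettl3 knockdown 62.2, 78.2 and 72.4% in set 1 and 59.8, 78.2 and 77.1% in set 2. Peaks facing a gene peak were at 60.0, 68.0, 74.8 and 62.0%. Among new peaks, those facing a gene peak had shares of 66.1, 64.4, 50.9 and 64.4%, and those on a same-strand gene 27.6, 52.3, 20.5 and 43.4%, the lowest in each table.

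In both scramble libraries and no knockdown library were 105 of the 2287 loci (4.59%), beside 4.70% of all 10747 loci, so the share was near the background. The 6 with the most tags are described here. The first lay 423 nt beyond the listed 3′ end of Thada (chr17:84188773-84189633, minus strand), with 96 and 93 tags and an enrichment of 24.5 and 14.4. AC125059.4, a noncoding gene antisense to Gal3st3, followed at chr19:5306365-5307515 with 93 and 117 tags. A locus 320 nt before the start of Cxcl16, a chemokine gene, and inside Zmynd15 on the other strand (chr11:70460304-70461119) had 97 and 79. One 3064 nt beyond Gm14230 (chr2:156828763-156829985) had 72 and 85, and one 305 nt beyond the 3′ end of Trap1, a mitochondrial chaperone, had 66 and 79 (chr16:4038755-4039666). The last named, 1301 nt beyond Gm20541 (chr17:38013697-38014726), had 65 and 119. All knockdown libraries lacked a peak there, which is a call below the threshold and not a level of 0.

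In all 4 knockdown libraries and no scramble library were 5 loci (0.219%), beside 0.372% of all loci. The first, 3445 nt beyond the zinc finger gene Zfp971 (chr2:178037467-178038419), had 41 and 70 tags after Mettl14 knockdown and 67 and 47 with Mettl3 knockdown. The second, at chr17:45135267-45135713, had 30, 31, 30 and 20. A locus in the 5′ untranslated region of Gm19426 (chr2:84743509-84743803) had 19, 30, 19 and 26, one at chr14:114804736-114804938 had 18, 13, 11 and 11, and one in a noncoding exon of D330041H03Rik (chr17:24404918-24405107) had 11, 12, 17 and 11. Tag numbers this small limit each of them.

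Shared in all 4 tables were 102 loci, of which 20 (19.6%) had a log2 change below 0 in all 4 and 8 (7.84%) above 0 in all 4. Of all 2174 loci shared in the 4 tables, 25.3% were below and 1.66% above. The tables of a set share the scramble library, so the 4 signs are not independent. For those lower in all 4, sequences are shown for Zdhhc23 and Gm48226, with capitals as above. The Zdhhc23 window was placed at the GGAC nearest to the middle of the locus, so it holds one by construction. The window of the Sox4 locus is printed above on the gene strand.
Zdhhc23 3′ untranslated region, chr16:43968023-43968052 (minus strand): cagctcttccccaGGACTaagatgattcct
Gm48226 noncoding exon, chr12:78226355-78226474 (minus strand): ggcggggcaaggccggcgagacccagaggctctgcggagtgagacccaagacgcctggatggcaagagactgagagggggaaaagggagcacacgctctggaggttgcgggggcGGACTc
The locus opposite Sox2 ranked first among those lower in all 4 tables, with enrichment of 110 and 30.6 in the scramble libraries and 27.6, 11.0, 29.9 and 24.9 in the knockdown libraries. The authors' deposited tables gave log2 changes of -2.13, -1.84, -1.88 and -1.01. The scramble value of set 1 stood apart, and the Mettl3 value of set 2 was close to its scramble value before scaling. Zdhhc23, a protein palmitoyltransferase gene whose listed span ended 698 nt before the locus, had 87.8 and 55.4 in the scramble libraries and 43.8, 35.4, 31.0 and 17.4 with knockdown, so all 4 knockdown values lay below both scramble values. The changes were -1.15, -1.01, -1.50 and -2.39 in the authors' deposited tables.

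The locus opposite Sox4 had changes of -1.57, -1.24, -0.96 and -1.65 in the authors' deposited tables. Gm48226, a noncoding gene divergent from Gphn, the gene of the synaptic scaffold gephyrin, had enrichment of 163 and 54.9 in the scramble libraries and 40.5 to 84.5 with knockdown. An unannotated locus at chr12:69553156-69553567 had 116 and 179 against 34.6 to 91.6.

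Higher in all 4 tables, the locus opposite H13 (chr2:152703996-152704337), a signal peptide peptidase gene, had enrichment of 61.9 and 47.2 in the scramble libraries and 236, 208, 127 and 211 with knockdown. It held only 11, 19, 26 and 12 tags, and the log2 changes were 1.79, 1.78, 1.04 and 1.44 in the authors' deposited tables. A locus at chr19:56511342-56512485, 24590 nt beyond Plekhs1, had more tags, 75, 98, 143 and 95, and enrichment of 9.21 and 9.23 against 16.4 to 22.4. In a noncoding exon of 2310043M15Rik, opposite Dop1b, enrichment was 20.6 and 9.25 against 17.5 to 70.0, so the ranges overlapped. At chr5:34335697-34336260 it was 12.3 and 16.8 against 19.6, 40.9, 203 and 40.0, on 21 to 44 tags. Before Fbxw7, which encodes a ubiquitin ligase substrate receptor, a locus 103 nt from its 5′ start (chr3:84814507-84815165) had 46 to 79 tags with knockdown. Its scramble partners carried a gene ID, and its changes were 2.72, 0.14, 2.33 and 0.14 in the authors' deposited tables.

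The loci with the highest enrichments differed widely between libraries. An intronic locus of 4732471J01Rik (chr7:25486431-25486762) had 837 with Mettl3 knockdown in set 1 and 9.72 to 55.0 in the other 5 libraries, with 44 to 66 tags. Fignl2 (chr15:101078336-101078554) had 706 in that library and 9.98 to 17.2 in the other 3 with a peak. Opposite Usp35, a deubiquitinase gene, chr7:97312020-97312297 had 550 and 530 in the scramble libraries, 703 and 90.2 with Mettl3 knockdown, 31.1 with Mettl14 knockdown in set 1 and no peak in set 2. Tags at Fignl2 were 32 to 40 and opposite Usp35 37 to 42 in the knockdown libraries with a peak, so tags varied far less than enrichment.

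Most loci stood alone. With neighbours on the same strand at most 10 kb apart counted together, 1651 of 2287 loci (72.2%) had none, and 8 runs held 5 or more, with 60 loci in all. The run with the most loci had 16 in 9.66 kb at chr3:6297908-6307567 on the plus strand, with no annotated gene on either strand, and 6 of its loci were in at least 2 libraries and 0 in all 6. The next by number had 11 loci in 13.6 kb at chr10:27812137-27825741 on the minus strand, also with no annotated gene, and 5 in at least 2 libraries. The longest stretch, 16.3 kb at chr4:133665178-133681440 on the plus strand, held 5 loci. Repeats in these stretches were not analysed here.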

How the data were processed

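Peak tables of 6 m6A IP libraries from J1 cells were used. The 6 libraries without antibody were not analysed here, having no columns of their own. The submitters' processing notes name the build mm10 and the tools Bowtie 0.12.7, CASAVA 1.8.2, Picard 1.74, SAMtools 0.1.18, TopHat2 2.0.6 and cutadapt 1.1. Peaks have MACS names and were called by strand, each IP against a matching control, per the file headers. The sources used here do not give the caller's version. Deposited values, per the file headers, are tag counts per peak, peak width, fold enrichment as a ratio of IP to control, the peak score and the FDR in percent. The deposited signed fold, a score comparing scaled knockdown with scramble enrichment, was turned into log2. Scramble enrichment of shared peaks was solved from it, which returned deposited values within 1% for 2833 of 2833 peaks that could be checked. Library depth was not known, so no value was scaled to it.

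Values were computed with Python 3.11.15, pandas 2.3.3, NumPy 2.4.6 and SciPy 1.17.1. A scramble peak without an entry of its own counted as having no gene if all its shared entries lacked one. Measures were compared as medians per library, by exact two-sided sign-flip permutation over libraries with Benjamini-Hochberg adjustment over 7 tests. The permutation was tried on random subsets of the widths of peaks with a gene. These were drawn separately in each library, so the trial says nothing of peaks that recur between libraries. Overlap was at least 1 nt on 1 strand. Where a library had several peaks at a locus, tags were summed and enrichment was that of the widest. Log2 changes of a locus were means over its shared pairs. Place and sequence came from GENCODE M21. Named loci were up to 10 in all 6 libraries, 6 in scramble alone and 6 in knockdown alone by lowest tags, 6 lower and 6 higher in all 4 tables by the smallest change, and the 3 of highest enrichment. One of the loci this rule names is not reported here. Members and lists were chosen with earlier results of these data known. Motif windows needed a centre in an exon, as no genome sequence was used, and repeat content was not run. Alternatives are in the closing section.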

Additional observations from a re-analysis of the deposited data

How the results depend on the processing

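Leaving out each library in turn kept the direction of all 7 tested differences, but 5 libraries cannot give an exact permutation p under 0.0625. The ranges were -341 to -323 nt for width, -55.3 to -48.3 for tags, -5.13 to -4.62 for tags per 100 nt, 56.3 to 65.7 for enrichment, -51.0 to -41.1 for score, and 5.38 to 6.47 and 26.4 to 29.2 points for GGACT against gene peaks and against the other strand. In the 4 knockdown libraries alone, chosen after seeing the data like the tag and width classes, the smallest p is 0.125. Values there were -339 nt, -59.1 tags, -5.44 tags per 100 nt, 70.3 for enrichment, -59.2 for score, 6.48 and 29.2 points.

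At an FDR of at most 1%, score was -45.6 (exact permutation p = 0.0625), GGACT 4.31 points (exact permutation p = 0.656) and GGACT against the other strand 23.8 points (exact permutation p = 0.0625). The share in another library was 60.4% (83.7% for peaks with a gene), where scramble peaks without a listed FDR drop out. New shares were 16.7, 18.5, 8.61 and 34.0%, lower shares 33.5, 50, 24.1 and 74.3%, and median log2 changes 0.47, -0.023, 0.88 and -0.76, in the order Mettl14 set 1, set 2, Mettl3 set 1, set 2. At 10 to 30 tags score reversed to 7.28. Under 300 nt the GGACT difference was 1.20 points (exact permutation p = 0.594). On either strand, 74.1% had a partner and the listed gene distance was 20.2 kb. With the scaling constant divided out, lower shares were 37.3, 54.3 and 59.1% for Mettl14 set 1, set 2 and Mettl3 set 2, and median log2 changes 0.32, -0.069, 0.58 and -0.22. The cause was not tested.

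No paired analysis was possible because no test between groups was made: lost, new and lower peaks are counted within a set against the scramble library its tables share, and the 7 tests compare peaks within a library. The label replicate behind each set is not stated. The FDR limit was not run for lost peaks, whose FDR is listed only when lost, nor the motif test outside genes, which have no transcript. Few tags limit single loci.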
